A study of Homo sapiens with 5 samples.

Results

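The transcription factor genes that pattern the dorsal telencephalon, EMX1, EMX2, LHX2, PAX6, NR2F1, NR2F2 and SOX2, were followed in brain organoids of human origin, both in culture and as grafts in the mouse brain. These 7 genes were given by name and not by a rule on their values, but with earlier results of these data known. They are among 32732 genes present in the annotations of all 5 libraries, and all 7 were detected and tested in every comparison. All organoids came from H9, a widely used human embryonic stem cell line, which the labels give as WT and the study describes as carrying channelrhodopsin-2 and EYFP at the AAVS locus. D0 held organoids kept in vitro to day 42, the age of transplantation, and the other libraries held grafts from the prefrontal cortex (PFC) or hippocampus (HIP) of SCID mice, taken 2 or 4 months post transplantation (MPT). With D0, the 4 graft groups (HIP_2MPT and PFC_2MPT, HIP_4MPT and PFC_4MPT) made 5 libraries, 1 of pooled material for each group. The 2 libraries of a stage came from different graft sites and served as its replicates, so that the p-values measure the spread between those libraries, which may be technical in part.

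The telencephalon divides early into a dorsal part, the pallium, which forms cortex and hippocampus, and a ventral part, the subpallium, which forms most inhibitory neurons of the forebrain. EMX1, EMX2 and LHX2 are homeodomain proteins of the pallium, PAX6 is a paired-box homeodomain protein of dorsal radial glia, and SOX2 is an HMG-box protein of neural stem cells and, later, of astrocytes. NR2F1 and NR2F2, also known as COUP-TFI and COUP-TFII, are orphan nuclear receptors that shape cortical areas and are also found in interneurons and hippocampal cells.

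Human cells numbered 4885 to 8363 per library, with a median of 9847 unique molecular identifiers (UMIs, tags that mark single RNA molecules) per cell in D0 and 1253 to 2759 in grafts, HIP_2MPT being the shallowest. Pairs of libraries shared 6 to 20 cell barcodes. Cells were grouped with the 7 genes left out of the clustering and were called progenitor-like, neuron-like or astrocyte-like from other markers. Progenitor-like cells were those of cycling and radial-glia-like clusters. Neuron-like cells were those of glutamatergic-neuron-like and inhibitory-neuron-like clusters and also of intermediate-progenitor-like and newborn-neuron-like clusters. Progenitor-like cells numbered 1755 in D0 and 411 to 503 in grafts, neuron-like cells 2143 and 4762 to 7382, and astrocyte-like cells 106 and 366 to 711. Radial-glia-like cells made up 1169 of the 1755 progenitor-like cells of D0 and numbered 105 to 171 per graft library, and a single cluster, almost all of whose cells came from D0, held 1107 of the 2143 neuron-like cells of D0. The radial-glia-like cluster was named from sums over all libraries, and 1169 of its 1689 cells came from D0. Clustered without integration of the libraries, the cluster of that name held 1213 cells of D0 and, among grafts, 2 cells of PFC_4MPT. Its name is thus less sure in grafts. Levels are given in CPM, the UMIs of a gene per 1000000 UMIs of the same cells, with exact 95% Poisson intervals in brackets that cover counting error only. In such sums, fewer cells that express a gene and less RNA per cell cannot be told apart.

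In GRCh38 (GENCODE v44), EMX1 lies at chr2:72916260-72936071 (+), EMX2 at chr10:117542445-117549546 (+), LHX2 at chr9:124001670-124033301 (+) and PAX6 at chr11:31784779-31817961 (-). NR2F1 lies at chr5:93583222-93594611 (+), NR2F2 at chr15:96325938-96340263 (+) and SOX2 at chr3:181711925-181714436 (+). SOX2 sits within the body of the long noncoding gene SOX2-OT, on the same strand and with 0 shared exon bases. PAX6 shares 5241 exon bases with ELP4 on the opposite strand, EMX2 shares 348 with EMX2OS and NR2F1 shares 158 with NR2F1-AS1. Whether the counting used strand is not given in the sources used here.

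Of the 7 genes, 6 had an entry in the RefSeq promoter table (GRCh38.p14), all but EMX1. For SOX2, LHX2, NR2F1 and PAX6 the 250 bases before an annotated start overlapped no exon of the gene itself. They are shown in lower case, 1 stretch per gene, because each of these 4 genes differed between cell classes in its change between stages, as described below. The letters searched, on both strands, were TAATTA (a homeodomain core), AGGTCA (a nuclear receptor core site) and ACAAT (a SOX core), and matches are in capitals. TAATTA was found in 4.3% of 35116 promoter stretches of these 250 bases, AGGTCA in 12.1% and ACAAT in 24.6%. Among the shown stretches, AGGTCA matched on the reverse strand in that of SOX2, at chr3:181711675-181711924 (+), of which 64 bases also lie in an exon of another annotated gene. None of the 3 motifs matched in those of LHX2, at chr9:124011518-124011767 (+), NR2F1, at chr5:93582972-93583221 (+), and PAX6, at chr11:31817962-31818211 (-). A match describes the letters and is no evidence of binding.
SOX2: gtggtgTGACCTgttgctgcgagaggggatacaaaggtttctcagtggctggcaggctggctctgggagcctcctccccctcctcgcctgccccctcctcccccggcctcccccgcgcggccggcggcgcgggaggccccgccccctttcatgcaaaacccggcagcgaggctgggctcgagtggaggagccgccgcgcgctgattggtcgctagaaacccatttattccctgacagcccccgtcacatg
LHX2: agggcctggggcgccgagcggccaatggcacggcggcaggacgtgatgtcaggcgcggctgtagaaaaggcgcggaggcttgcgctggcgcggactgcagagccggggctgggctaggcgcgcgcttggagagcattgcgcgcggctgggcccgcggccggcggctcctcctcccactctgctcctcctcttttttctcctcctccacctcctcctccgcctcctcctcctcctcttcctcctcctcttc
NR2F1: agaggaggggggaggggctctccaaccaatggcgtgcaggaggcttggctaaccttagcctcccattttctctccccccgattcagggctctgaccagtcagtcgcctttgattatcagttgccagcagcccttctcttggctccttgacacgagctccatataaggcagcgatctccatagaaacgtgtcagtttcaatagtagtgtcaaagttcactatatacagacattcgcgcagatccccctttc
PAX6: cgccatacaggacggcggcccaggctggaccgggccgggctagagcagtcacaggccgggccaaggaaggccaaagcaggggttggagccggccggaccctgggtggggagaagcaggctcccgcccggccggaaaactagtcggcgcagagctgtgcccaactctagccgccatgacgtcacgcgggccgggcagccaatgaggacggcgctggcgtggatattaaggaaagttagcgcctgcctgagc

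Over all human cells, EMX1 was at 137 CPM (134 to 140) in D0, at 71.6 (HIP_2MPT) and 62.8 (PFC_2MPT) at 2MPT and at 20.6 (HIP_4MPT) and 26.9 (PFC_4MPT) at 4MPT, so that D0 was highest and both 4MPT libraries lowest. LHX2 followed the same order of stages, at 377 CPM in D0, 280 and 265 at 2MPT and 187 and 190 at 4MPT. EMX2 was at 181 CPM in D0 and between 243 and 268 in 3 graft libraries, but at 912 CPM (895 to 930) in HIP_2MPT. PAX6 was at 233 CPM in D0 and 51.6, 92.0, 75.9 and 92.6 in HIP_2MPT, PFC_2MPT, HIP_4MPT and PFC_4MPT, with every graft library below D0. NR2F1 was at 181 CPM in D0 and 352, 488, 827 and 352 in the same 4 graft libraries, HIP_4MPT standing above the rest. NR2F2 was at 159 CPM in D0 and at 26.3, 56.0, 80.6 and 57.9 in the grafts. SOX2 spread widest among grafts, at 383 CPM in D0, 73.0 and 252 at 2MPT (HIP_2MPT lower) and 525 and 353 at 4MPT (HIP_4MPT higher).

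**Figure D1:**
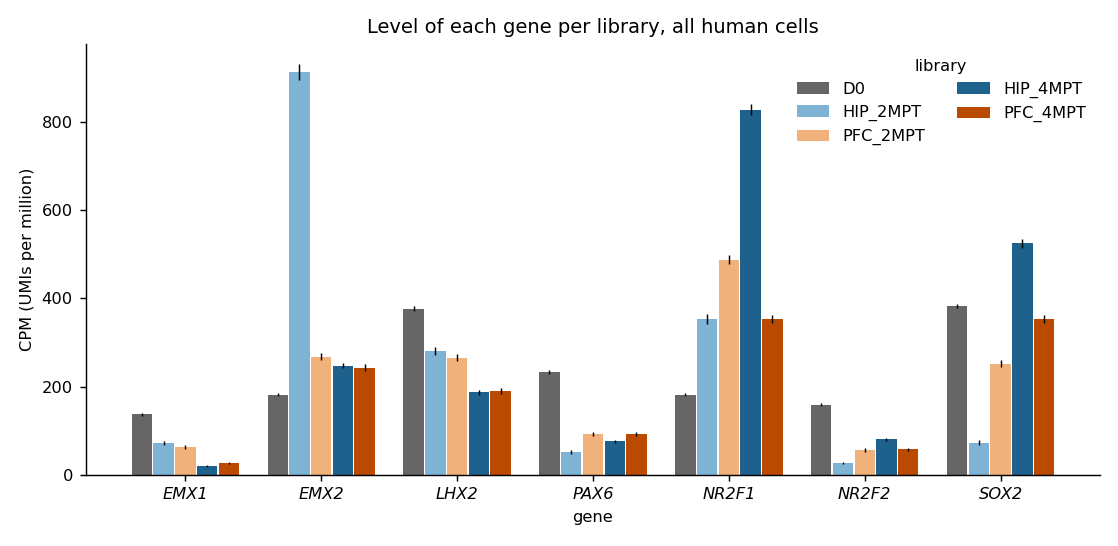
Bars give the level of each gene in CPM in all human cells of each of the 5 libraries, with exact 95% Poisson intervals. EMX2 reached 912 CPM in HIP_2MPT alone, NR2F1 827 CPM in HIP_4MPT, and EMX1 fell from 137 CPM in D0 to 20.6 and 26.9 CPM at 4MPT.

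The first comparison asked how the genes differed between grafts of 4 and of 2 months. Over all human cells, 1 of the 7 genes passed the threshold, EMX1, and it fell, where 2.4% of 19074 genes passed in either direction and 0.55% fell. EMX1 dropped from 67.2 ± 6.2 CPM (SD, n = 2) to 23.7 ± 4.5, a log2 fold change of -1.44 ± 0.24 (SE; adjusted p = 0.0126 by the quasi-likelihood test of edgeR, adjusted by Benjamini-Hochberg over all genes). The call was lost without HIP_4MPT (log2 fold change -1.22, edgeR adjusted p = 0.102) and without PFC_4MPT (-1.69, adjusted p = 0.121). LHX2 moved by -0.47 ± 0.22, PAX6 by 0.29 ± 0.30, NR2F1 by 0.53 ± 0.35 and NR2F2 by 0.79 ± 0.33 on the log2 scale, none of them past the threshold. SOX2 (1.47 ± 0.46, edgeR adjusted p = 0.157) and EMX2 (-1.20 ± 0.43, edgeR adjusted p = 0.226) differed more, but the 2MPT libraries of these genes stood 3.45-fold and 3.41-fold apart. Without PFC_2MPT, SOX2, EMX2 and NR2F2 all passed (2.66, -1.82 and 1.47 on the log2 scale), but 2MPT was then HIP_2MPT alone. In every fit without 1 library of a stage, the library left was assumed to vary like the other groups.

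Within progenitor-like cells, 3 of the 7 genes fell between the stages and none rose, while 1.34% of 13172 genes passed in either direction and 0.486% fell. EMX1 was at 84.0 CPM (64.4 to 108) in HIP_2MPT and 45.5 in PFC_2MPT, and at 12.4 and 12.9 CPM in HIP_4MPT and PFC_4MPT, which rest on 26 and 22 UMIs. Its log2 fold change was -2.15 ± 0.36 (edgeR adjusted p = 0.00063). LHX2 was at 342 and 355 CPM at 2MPT and 143 and 114 CPM at 4MPT, a log2 fold change of -1.29 ± 0.27 (edgeR adjusted p = 0.0073). For both genes the 2 stages did not overlap. EMX2 was at 721 and 319 CPM at 2MPT and 222 and 175 CPM at 4MPT (-1.22 ± 0.31, edgeR adjusted p = 0.039), and without HIP_2MPT its log2 fold change was -0.57 (adjusted p = 1.00). The calls of EMX1 and LHX2 were lost without PFC_4MPT (-2.22 and -1.18, edgeR adjusted p = 0.19 and 0.289) and with classes set by a gate on each cell instead of clusters (-1.51 and -0.76, edgeR adjusted p = 0.0583 and 0.259). PAX6 (197 and 247 CPM, then 162 and 161), NR2F1 (531 and 558, then 753 and 338), NR2F2 (32.5 and 43.5, then 73.5 and 51.5) and SOX2 (332 and 754, then 1081 and 795) did not pass, although SOX2 did without PFC_2MPT (1.69).

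The same progenitor-like cells differed between the stages in their other markers. Of 8 pallial neurogenic factors, 4 fell and none rose (median log2 fold change -1.58, against -0.008 over all genes tested): NEUROG2, which drives cortical neurogenesis (-3.01 ± 0.33), EOMES of intermediate progenitors (-1.65 ± 0.30), NEUROD6 (-2.96 ± 0.56) and BHLHE22 (-1.52 ± 0.39). All of these factors but BHLHE22 are also among the markers that named neuron-like clusters, so the list is not independent of how progenitor-like cells were set apart. FEZF2, a factor of deep-layer neurons, was the single one of 18 pallial progenitor factors to pass (-1.84 ± 0.36). ZBTB20 and HES5, the pallial progenitor factors with the highest levels, did not pass. Of 10 subpallial factors tested, 4 of which are also among the inhibitory neuron markers, 7 rose, DLX1, DLX2, DLX5, DLX6, GSX2, SP9 and SIX3 (median 4.52, or 4.25 with SIX3, which had no UMI at 2MPT, at its bound of 3 counts). DLX2 went from 1.36 and 12.2 CPM in HIP_2MPT and PFC_2MPT to 123 and 238 CPM in HIP_4MPT and PFC_4MPT. The summed level of the 8 inhibitory neuron markers in progenitor-like cells was 20.3 and 58.7 CPM at 2MPT and 656 and 1439 CPM at 4MPT, and that of the 8 oligodendrocyte lineage markers 50.2 and 70.9, then 625 and 311 CPM. At least 1 UMI of these 16 genes was present in 8.72% and 18.3% of progenitor-like cells of HIP_2MPT and PFC_2MPT and in 77.1% and 76.9% of those of HIP_4MPT and PFC_4MPT. These shares were not corrected for depth, and the median was 1639 and 3911 UMIs per progenitor-like cell, then 4846 and 3339. A choice of cells without such a UMI may thus also favour shallower cells, which was not tested. The part of cells with such a UMI in the change of EMX1, EMX2 and LHX2 was measured only through the selections that follow.

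In progenitor-like cells without such a UMI, 94 and 114 of which remained at 4MPT, EMX1 was at 86.1 and 53.2 CPM at 2MPT and 20.3 and 22.3 CPM at 4MPT, and LHX2 at 346 and 376, then 237 and 215 CPM. The log2 fold changes of EMX1 and LHX2 were then -1.53 ± 0.41 and -0.53 ± 0.25, and that of EMX2 -0.89 ± 0.33. None of the 7 genes passed the threshold in those cells (edgeR adjusted p of EMX1 0.322, of LHX2 0.745 and of EMX2 0.628), although 5 had an unadjusted p under 0.05, and DESeq2 was not run on this subset. Of all genes tested, 8 passed in this subset, against 176 in all progenitor-like cells, and why fewer passed was not tested. In all progenitor-like cells the log2 fold change of LHX2 was -1.29 ± 0.27 and that of EMX2 -1.22 ± 0.31. In the radial-glia-like cluster alone, which held 105 to 171 cells per graft library, EMX1 was at 45.8 and 40.3 CPM at 2MPT and 5.43 and 11.1 CPM at 4MPT (-2.22 ± 0.59, edgeR adjusted p = 0.154). LHX2 there moved by -0.87 ± 0.28 (edgeR adjusted p = 0.34) and EMX2 by -0.46 ± 0.31. None of the 7 genes passed there by edgeR, 3 had an unadjusted p under 0.05, and DESeq2 was not run. Of all genes tested, 28 passed in that cluster. Both selections were made after the data had been seen, and the name of that cluster in grafts depended on integration with D0.

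**Figure D2:**
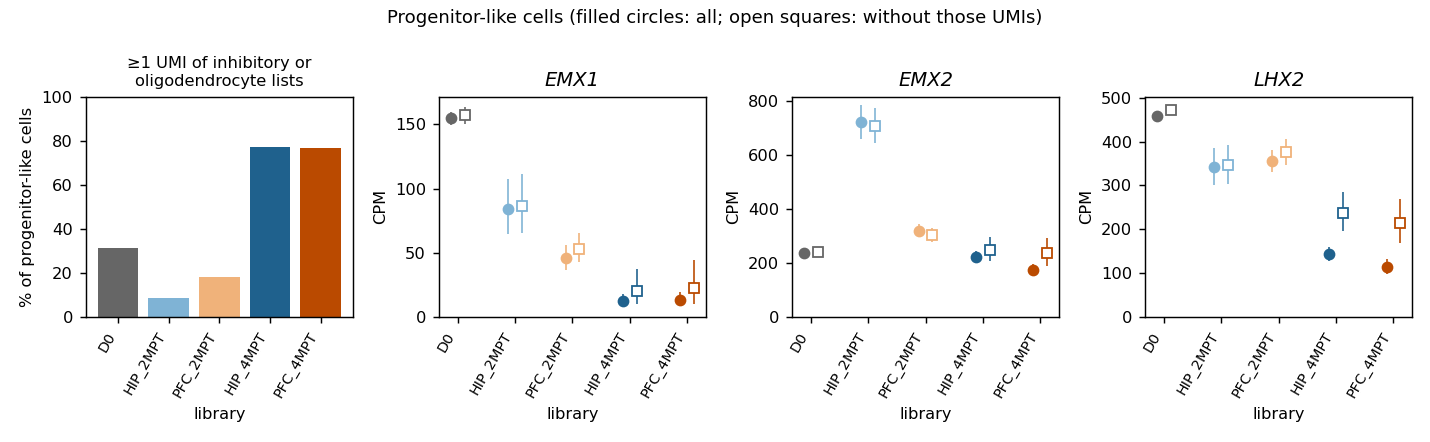
The left panel gives the percentage of progenitor-like cells with at least 1 UMI of the inhibitory neuron or oligodendrocyte lineage markers in each library, not corrected for depth, from 8.72% in HIP_2MPT to 77.1% in HIP_4MPT. The other panels give EMX1, EMX2 and LHX2 in CPM with 95% Poisson intervals in all progenitor-like cells (filled circles) and in those without such UMIs (open squares); at 4MPT the squares of LHX2 stand at 237 and 215 CPM, above the circles at 143 and 114 CPM.

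In neuron-like cells, 1 of the 7 genes passed, SOX2, and it rose, where 0.98% of 17651 genes passed in either direction and 0.652% rose. SOX2 was at 25.4 CPM in HIP_2MPT and 65 in PFC_2MPT and at 201 and 157 CPM in HIP_4MPT and PFC_4MPT, with no overlap between the stages (log2 fold change 2.02 ± 0.39, edgeR adjusted p = 0.034). Without HIP_4MPT the adjusted p was 0.052. Without the inhibitory-neuron-like clusters SOX2 was at 24.8 and 61.9, then 172 and 86.6 CPM, and its log2 fold change was 1.63 (edgeR adjusted p = 0.096). Free RNA that cells of a library share was not corrected for, and its part in the rise of SOX2 was not tested. Neuron-like cells include intermediate-progenitor-like and newborn-neuron-like cells, and their part in this rise was not tested either. EMX1 just missed the threshold, from 69.9 and 67.7 CPM to 26.1 and 33.0 CPM (-1.17 ± 0.24, edgeR adjusted p = 0.0516), and it was lower than 0.05 under several other settings but not without the inhibitory-neuron-like clusters (-0.96, edgeR adjusted p = 0.143). PAX6 went from 33.6 and 45.0 to 54.8 and 89.5 CPM (0.93 ± 0.30, edgeR adjusted p = 0.206), and LHX2 from 270 and 235 to 209 and 212 CPM (-0.21 ± 0.24). NR2F1 (317 and 438, then 881 and 357 CPM), NR2F2 (25.5 and 57.3, then 93.2 and 62.0) and EMX2 (942 and 253, then 236 and 255) did not pass. Without PFC_2MPT, EMX2 (-1.85), PAX6 (1.20) and NR2F2 (1.69) passed as well.

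In astrocyte-like cells, 1 of the 7 genes passed, EMX1, and it fell, where 2.97% of 12859 genes passed in either direction and 0.762% fell. EMX1 was at 74.6 CPM (52.5 to 103) and 57.3 CPM at 2MPT and at 21.7 and 26.9 CPM at 4MPT (-1.36 ± 0.30, edgeR adjusted p = 0.0201), and the call was lost without HIP_4MPT (-1.20, adjusted p = 0.163). LHX2 was at 399 and 403, then 250 and 245 CPM (-0.64 ± 0.24), and PAX6 at 173 and 238, then 129 and 114 CPM (-0.71 ± 0.27); neither passed, although their stages did not overlap, and PAX6 passed without HIP_2MPT (-0.93). Without PFC_2MPT, EMX2 (-1.36) and NR2F2 (1.43) passed. Astrocyte-like cells with a UMI of the inhibitory neuron or oligodendrocyte lineage markers made up 6.56% and 7.60% at 2MPT and 38.7% and 40.5% at 4MPT, and without those cells EMX1 moved by -0.86 ± 0.32 (edgeR adjusted p = 0.206). These shares too were not corrected for depth. The summed level of the 11 astrocyte markers in all astrocyte-like cells was 1553 and 2429 CPM at 2MPT and 11712 and 8226 CPM at 4MPT, and its part in the change of EMX1 was not tested. In D0, whose 106 astrocyte-like cells were set against no other group, that sum was 585 CPM. In astrocyte-like cells of HIP_2MPT the 11 glutamatergic neuron markers summed to 1696 CPM, above the astrocyte markers.

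**Figure D3:**
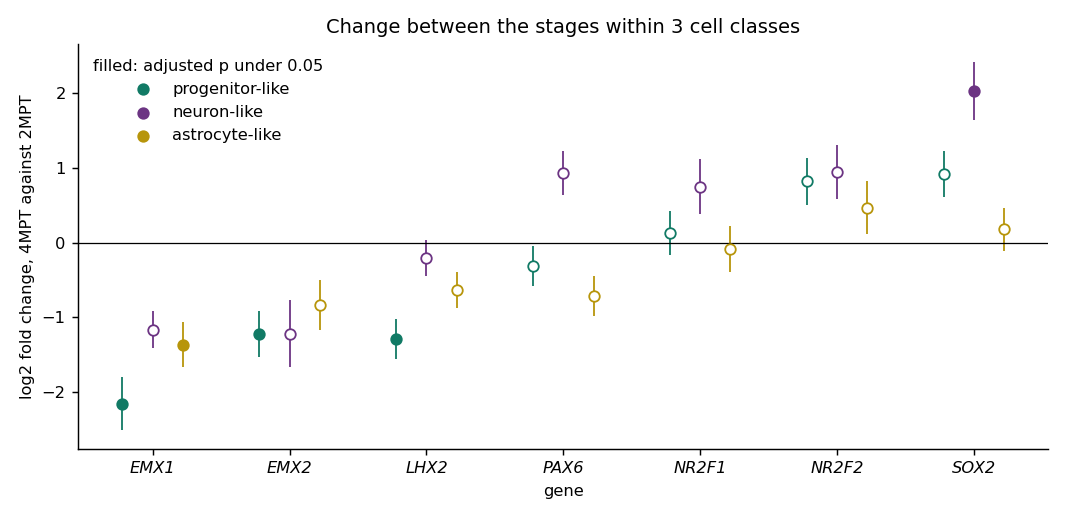
Points give the log2 fold change of each gene, 4MPT against 2MPT, with its SE, in progenitor-like, neuron-like and astrocyte-like cells; filled points passed an adjusted p under 0.05. The points of EMX1 lay at -2.15, -1.17 and -1.36 and passed in progenitor-like and astrocyte-like cells, and those of SOX2 lay at 2.02 in neuron-like cells, where it passed, and at 0.17 in astrocyte-like cells, where it did not.

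Whether the change between stages differed between classes was tested in 1 model of the 12 sums of 4 graft libraries by 3 classes, with the library as a block. Between progenitor-like and neuron-like cells, 3 of the 7 changes differed, where 0.812% of 14161 genes passed: LHX2 by -1.12 ± 0.20 (edgeR adjusted p = 0.00975), PAX6 by -1.24 ± 0.26 (0.024) and SOX2 by -1.17 ± 0.19 (0.00538), each on the log2 scale and more negative in progenitor-like cells. The differences were not tested in progenitor-like cells without UMIs of the inhibitory neuron or oligodendrocyte lineage markers. Leaving out the inhibitory-neuron-like clusters removed neuron-like cells only. The differences of PAX6 and SOX2 were then -0.50 and -0.71 and no longer passed. All 3 were lost without HIP_4MPT (-1.26, -1.54 and -1.17) and without PFC_4MPT (-0.92, -0.83 and -1.10), and LHX2 (-0.94) and PAX6 (-1.25) also without PFC_2MPT. Between astrocyte-like and neuron-like cells, 3 of 7 differed against 4.29% of all genes: SOX2 by -1.95 ± 0.19 (edgeR adjusted p = 1.2e-05), PAX6 by -1.60 ± 0.26 (0.00166) and NR2F1 by -0.84 ± 0.18 (0.0112). The neuron-like cells here were the same, inhibitory-neuron-like clusters included, and PAX6 and SOX2 in those clusters are given below. Without PFC_4MPT, PAX6 (-1.07) and NR2F1 (-0.85) did not pass, and NR2F1 did not without HIP_2MPT (-0.66) or HIP_4MPT (-0.72) either. For EMX1 neither difference passed, at -0.95 ± 0.31 for progenitor-like (edgeR adjusted p = 0.221) and -0.21 ± 0.29 for astrocyte-like against neuron-like cells.

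**Figure D4:**
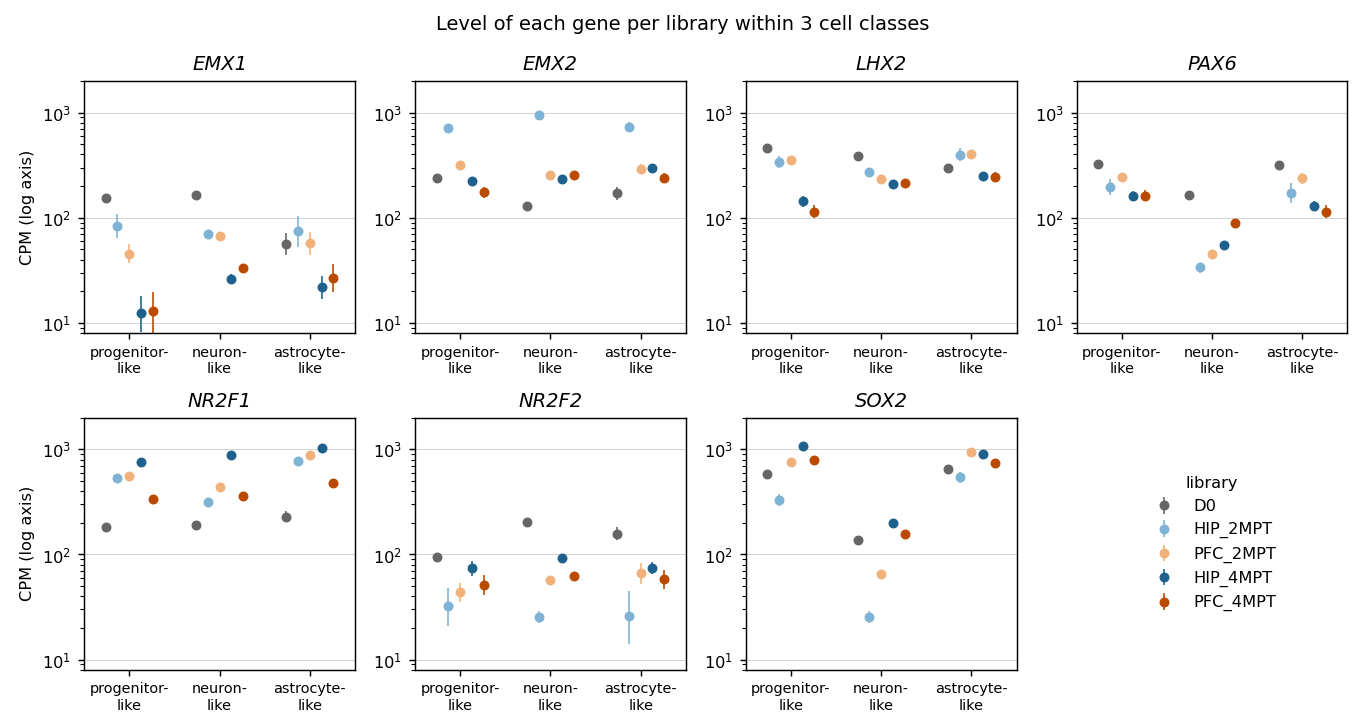
Each panel gives 1 gene in CPM on a log axis, with 95% Poisson intervals, for the 5 libraries within progenitor-like, neuron-like and astrocyte-like cells. SOX2 in HIP_2MPT went from 332 CPM in progenitor-like cells to 25.4 CPM in neuron-like cells, while EMX2 of the same library was at 721 and 942 CPM.

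The classes of the grafts were then compared with each other, again with the library as a block. Against neuron-like cells, 3 of 7 genes differed in progenitor-like cells, 2 higher and 1 lower, where 46.8% of 14161 genes passed: SOX2 by 2.94 ± 0.30 on the log2 scale (edgeR adjusted p = 2.49e-06), PAX6 by 1.82 ± 0.27 (7e-05) and EMX1 by -0.55 ± 0.19 (0.027). The difference of EMX1 was lost when any of PFC_2MPT, HIP_4MPT or PFC_4MPT was left out (-0.58, -0.44 and -0.37). Astrocyte-like cells were higher than neuron-like cells in SOX2 (2.94 ± 0.31), PAX6 (1.36 ± 0.27) and NR2F1 (0.55 ± 0.16, edgeR adjusted p = 0.00959), 3 of 7 genes against 52.7% of all genes, and that of NR2F1 missed the threshold without PFC_2MPT (adjusted p = 0.054). EMX2, LHX2 and NR2F2 differed by at most 0.26 on the log2 scale between neuron-like cells and either other class, none past the threshold. Between astrocyte-like and progenitor-like cells, none of the 7 passed in edgeR (0 at an unadjusted p under 0.05) or in DESeq2 (1 unadjusted), where 34.6% of all genes did. The summed level of the 10 radial glia markers was higher in astrocyte-like cells in every graft library. It was 8070 and 13985 CPM at 2MPT and 12751 and 13587 CPM at 4MPT (HIP, then PFC). In progenitor-like cells, which include the cycling clusters, it was 3149 and 6248, then 3105 and 3158 CPM. The 2 classes are thus no clean contrast of astrocytes with radial glia.

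SOX2 and PAX6 were also followed in finer kinds of clusters. For the intermediate-progenitor-like and newborn-neuron-like part of the neuron-like cells, shares of cells with a UMI of SOX2 are given below. In glutamatergic-neuron-like cells, SOX2 was at 13.9 and 24.4 CPM at 2MPT and at 89.7 and 62.8 CPM at 4MPT. Both 4MPT libraries thus stood above both 2MPT libraries, which was not tested. Over all human cells of these libraries SOX2 was at 73.0 and 252, then 525 and 353 CPM. Free RNA that cells of a library share was not corrected for, and its part in these levels was not tested. In inhibitory-neuron-like cells SOX2 was at 104 and 339, then 627 and 361 CPM. PFC_4MPT held 2040 of the 2547 inhibitory-neuron-like cells of the grafts. The cluster with 8 of 8 inhibitory neuron markers raised held 13 and 19 of them at 2MPT and 246 and 1080 at 4MPT. The rest, 47 and 59, then 123 and 960, came from a cluster with 3 of 8 raised. Its median depth was 0.46 of that of the libraries, so that the name is less sure for most such cells of 2MPT and for many of 4MPT. Oligodendrocyte-lineage-like cells numbered 945 and 731 at 4MPT against 31 and 63 at 2MPT. SOX2 in these was at 994 and 764 CPM at 4MPT. PAX6 showed a like contrast between glutamatergic-neuron-like and inhibitory-neuron-like cells. It was at 20.4 to 29.8 CPM per library in glutamatergic-neuron-like cells. In inhibitory-neuron-like cells of PFC_2MPT, HIP_4MPT and PFC_4MPT it was at 236 to 316 CPM. In HIP_2MPT, with 5 UMIs in 60 inhibitory-neuron-like cells, it was at 74.1 CPM (24.1 to 173). EMX1 was at 4.35 and 3.53 CPM in oligodendrocyte-lineage-like cells and 7.39 and 14.3 CPM in inhibitory-neuron-like cells of HIP_4MPT and PFC_4MPT, below its 25 and 37.1 CPM in glutamatergic-neuron-like cells. NR2F1 was highest in intermediate-progenitor-like and newborn-neuron-like cells of HIP_4MPT, at 1083 CPM.

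**Figure D5:**
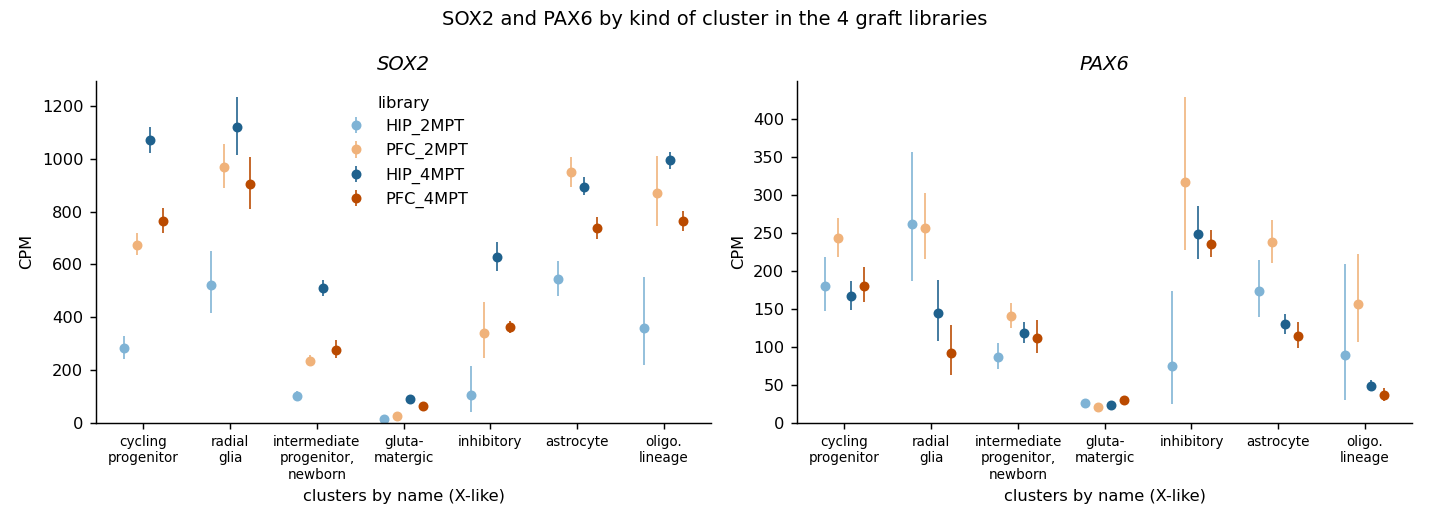
Points give SOX2 and PAX6 in CPM, with 95% Poisson intervals, in each kind of cluster of the 4 graft libraries. SOX2 of HIP_4MPT stood at 1072 CPM in cycling-progenitor-like cells and 89.7 CPM in glutamatergic-neuron-like cells; PAX6 of PFC_4MPT stood at 236 CPM in inhibitory-neuron-like and 29.8 CPM in glutamatergic-neuron-like cells.

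The share of cells with a UMI was taken after cells were thinned to 1000 UMIs, since depth differed. Cells with fewer UMIs were left out of the thinned shares, while shares without thinning cover all cells. Of the 34390 cells 31087 were thinned, and in HIP_2MPT 6642 of 8277. In progenitor-like cells, EMX1 was seen in 13.8% of cells of D0, 6.99% and 3.61% at 2MPT (HIP, then PFC) and 0.737% and 1.86% at 4MPT, and without thinning in 64.3%, 11.6%, 15.5%, 5.6% and 4.26%. LHX2 was seen in 33.4%, 29.0%, 31.1%, 11.8% and 10.7% of these cells (84.8%, 42.1%, 68.8%, 41.4% and 28.6% without thinning). SOX2 was seen in 40.6%, 27.7%, 51.6%, 63.4% and 52.7% of thinned progenitor-like cells, and in 10.4%, 2.23%, 4.81%, 14.5% and 12% of thinned neuron-like cells. For background, EMX1 was seen in 1.36% of thinned choroid-plexus-like cells of D0 (median 14602 UMIs, against 11775 in progenitor-like cells), and in 0.427% and 0.557% of thinned oligodendrocyte-lineage-like cells of HIP_4MPT and PFC_4MPT (medians 3476 and 2604 UMIs, against 4846 and 3339). The thinned shares in progenitor-like cells at 4MPT rest on 3 cells of HIP_4MPT (0.152% to 2.14%, exact 95% interval) and 9 of PFC_4MPT (0.854% to 3.50%), and without thinning EMX1 was seen in 1.59% and 0.958% of the oligodendrocyte-lineage-like cells. SOX2 in glutamatergic-neuron-like cells was seen in 1.57% and 2.06% of thinned cells at 2MPT and 8.08% and 5.27% at 4MPT. Counting all 7 genes, thinned progenitor-like cells held a UMI of 1.63 of them on average in D0, 1.74 and 1.81 at 2MPT and 1.67 and 1.27 at 4MPT, with at most 7 in 1 cell.

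EMX2 was raised in HIP_2MPT in every class and kind of cluster. It was at 721 CPM in progenitor-like, 942 in neuron-like and 732 in astrocyte-like cells of that library, against 175 to 319 CPM over the other graft libraries and these classes. At 2MPT the HIP library stood 3.41-fold above the PFC library over all human cells, and at 4MPT 1.02-fold. The antisense neighbour EMX2OS was likewise highest in HIP_2MPT, at 49.1 CPM against 24.6, 20.5 and 17.4 CPM in PFC_2MPT, HIP_4MPT and PFC_4MPT. Against the human-mouse dual reference EMX2 of HIP_2MPT was at 911 CPM. NR2F1 was highest in HIP_4MPT in each class, at 753 CPM in progenitor-like, 881 in neuron-like and 1021 in astrocyte-like cells. The other grafts were at 338 to 558, 317 to 438 and 479 to 884 CPM, so that the gap was narrowest in astrocyte-like cells, and NR2F1-AS1 was at 154 CPM in HIP_4MPT against 84.6 to 93.5 CPM in the other grafts. NR2F2-AS1 was at 56.4 CPM in HIP_4MPT against 4.29 to 11 CPM. SOX2-OT, which is not in the annotation used for D0, was at 26.7 and 78.8 CPM at 2MPT and 424 and 516 CPM at 4MPT.

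The graft sites, PFC and HIP, were compared in the 4 grafts after taking out the stage, and 1 residual degree of freedom was left. None of the 7 genes differed by edgeR over all human cells (0 of 7, with 2 at an unadjusted p under 0.05; 0 by DESeq2, with 1 unadjusted), where 0.0827% of 18127 genes passed. EMX2 (-0.85 ± 0.38) and PAX6 (0.61 ± 0.30) had the lowest unadjusted p. None passed in progenitor-like (0.00843% of all genes; 1 of 7 unadjusted), neuron-like (0.042%; 0 unadjusted) or astrocyte-like cells (0.109%; 1 unadjusted), and DESeq2 called 0 of 7 in each. The 2 stages often went opposite ways: PFC over HIP was 1.38-fold at 2MPT and 0.426-fold at 4MPT for NR2F1, 3.45-fold and 0.672-fold for SOX2 and 2.13-fold and 0.719-fold for NR2F2.

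Grafts were also set against D0. D0 is a single library that was dissociated with another enzyme, counted with Cell Ranger 3.1.0 and not 5.0.0, and annotated differently. Its organoids were also at day 42, while grafts had developed for 2 or 4 months more. None of these differences, time included, can be told apart from transplantation. The tests scale libraries so that most genes keep their level, and scaling by UMI totals alone, as CPM does, shifted the median of all genes by 0.373 on the log2 scale at 2MPT and 0.316 at 4MPT towards the grafts, and by 0.399 and 0.152 in progenitor-like and neuron-like cells at 2MPT. Of all genes called over all human cells, 56.2% were higher in 2MPT than in D0, and 71.9% under scaling by totals; at 4MPT the shares were 57.2% and 70.5%, and in progenitor-like cells at 2MPT 58.2% and 78.4%. At 2MPT, 5 of the 7 genes were lower than in D0, where 48.3% of 19074 genes passed in either direction and 21.1% were lower: NR2F2 (-2.30 ± 0.39, edgeR adjusted p = 0.00082), PAX6 (-2.04 ± 0.35, 0.000846), SOX2 (-1.58 ± 0.53, 0.031), EMX1 (-1.38 ± 0.28, 0.00242) and LHX2 (-0.82 ± 0.26, 0.0247). Markers of other cells differed as well: the summed level of the 6 choroid plexus markers was 6152 CPM in D0 and 4.29 and 6.94 CPM at 2MPT, and that of the 10 radial glia markers 5783, then 1498 and 3113 CPM. The 369 choroid-plexus-like cells of D0 held NR2F2 at 294 CPM and SOX2 at 339 CPM, and their part in these differences was not tested. Under scaling by totals LHX2 (-0.45) and SOX2 (-1.22) no longer passed, and EMX2 (1.72) did. LHX2 was also lost without HIP_2MPT (-0.84) or PFC_2MPT (-0.80), and SOX2 without HIP_2MPT (-0.93) or PFC_4MPT (-1.53). EMX2 (1.95) passed without PFC_2MPT, and NR2F1 passed without HIP_2MPT (1.10) or HIP_4MPT (0.87). At 4MPT, EMX1 (-2.82 ± 0.28, edgeR adjusted p = 3.4e-05), PAX6 (-1.76 ± 0.35), NR2F2 (-1.51 ± 0.39) and LHX2 (-1.30 ± 0.26) were lower and NR2F1 (1.39 ± 0.46, edgeR adjusted p = 0.027) was higher than in D0, where 50.1% of genes passed. Without HIP_4MPT NR2F1 was at 0.72 and did not pass, and without PFC_4MPT NR2F2 (-1.26) did not. The 2 comparisons share D0.

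Within progenitor-like cells at 2MPT, EMX1 (-1.70 ± 0.35), NR2F2 (-1.65 ± 0.34), PAX6 (-0.94 ± 0.31) and LHX2 (-0.78 ± 0.31) were lower and NR2F1 (1.19 ± 0.38) was higher than in D0, 5 of 7 genes against 36.8% of 13172 genes (edgeR adjusted p from 0.000335 for EMX1 to 0.0487 for LHX2). The call of LHX2 was lost under most alternatives, and that of PAX6 under scaling by totals (-0.54) and without HIP_2MPT (-0.79). Without PFC_2MPT, EMX2 (1.14) and SOX2 (-1.28) passed. SOX2, at 585 CPM in D0, was at 332 and 754 CPM at 2MPT (-0.47 ± 0.36). In the radial-glia-like cluster alone EMX1 (-2.08), NR2F2 (-1.41) and NR2F1 (1.12) passed, where 2080 of all genes passed, against 4852 in all progenitor-like cells. The name of this cluster is less sure in grafts, as described above. Within neuron-like cells, 6 of 7 passed against 43.7% of 17651 genes: NR2F2 (-2.42 ± 0.42), PAX6 (-2.21 ± 0.34), SOX2 (-1.71 ± 0.44), EMX1 (-1.40 ± 0.28) and LHX2 (-0.76 ± 0.28) were lower and EMX2 (2.05 ± 0.60, edgeR adjusted p = 0.0174) was higher. EMX2 did not pass without HIP_2MPT (0.86) or by DESeq2 (1.98), which called 5 of 7. LHX2, at an edgeR adjusted p of 0.0487, was lost without HIP_2MPT (-0.82) or PFC_2MPT (-0.74) and under several other settings. NR2F2 in neuron-like cells of D0 was at 204 CPM (198 to 210), and every graft library was at 25.5 to 93.2 CPM.

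Other genes listed for comparison were also followed between the stages. Over all human cells, 9 of 11 subpallial factors tested rose between 2MPT and 4MPT and none fell (median 5.01 on the log2 scale, or 4.83 with the gene that had no UMI at 1 stage at its bound), against a median of -0.009 over all genes tested. Of 8 pallial neurogenic factors, NEUROG2, NEUROD2 and NEUROD6 fell and none rose (median -1.10). Of 18 pallial progenitor factors, ETV1 rose and FEZF2 fell (median 0.587, or 0.467 with 1 gene at its bound). BMP4 rose and TTR, the transthyretin gene of choroid plexus, fell among 12 hem and choroid plexus genes, and TCF7L2 rose among 5 diencephalon and hindbrain genes. None of the 14 tested paralogues and partners of the 7 genes passed in edgeR (8 at an unadjusted p under 0.05; 1 passed in DESeq2; median 0.072). Of 5 tested genes at the loci of the 7, NR2F2-AS1 rose (2.69 ± 0.59, edgeR adjusted p = 0.0408) and the others did not pass. NR2F2-AS1 stood far higher in HIP_4MPT than in every other graft library, PFC_4MPT included, as given above.

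The genes most like each of the 7 over the 15 sums of 5 libraries by 3 classes, by Pearson's correlation of log2(CPM + 1) among 7457 genes with a mean of at least 20 CPM, are given as a description, since the sums share libraries, depth and stage. LHX2 was most like EMX1 (r = 0.859), the only other member of the 7 among these. SOX2 was most like its relative SOX1 (r = 0.960), a SoxB1 factor of neural progenitors, and EMX2 was most like MIR9-3HG (r = 0.921), the host gene of a microRNA of neural progenitors. PAX6 was most like POLD2 (r = 0.929), NR2F1 like RAD9A (r = 0.954), NR2F2 like RBM12B (r = 0.916) and EMX1 like RNF4 (r = 0.885).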

How the data were processed

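Single-cell libraries were made with the 10x Chromium 3′ V3 kit from D0 organoids and from grafts. The authors deposited UMI counts per gene and cell, aligned by Cell Ranger to human GRCh38, for grafts also to a joint human and mouse reference. The submitters' processing notes name Cell Ranger 3.1; the file headers give 3.1.0 for D0 and 5.0.0 for grafts. D0 was dissociated with TrypLE and grafts with Trypsin-EDTA. Strand use and intronic reads are not given in the sources used here.

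Cells were kept with over 500 UMIs, over 500 genes, log10 genes divided by log10 UMIs over 0.8, under 15% mitochondrial UMIs and, in grafts, over 0.8 human UMIs on the joint reference. No doublet caller was run, and free RNA was not corrected for. The 34390 cells, with 11192237 to 55892222 UMIs per library, were clustered with Seurat 5.3.0 (sctransform 0.4.2, RPCA, 2500 variable genes less the 7 genes, 40 components, resolution 0.8), and 31400 cells of 22 clusters, 1 of them unnamed, fell into the 3 classes.

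UMIs were summed per library and class and tested with edgeR 4.0.16 (quasi-likelihood test, TMM, filterByExpr, Benjamini-Hochberg, threshold 0.05). Stages were compared in 1 model with the groups D0, 2MPT and 4MPT, in which D0, a single library, is assumed to vary like the others. PFC and HIP were compared with the stage as a covariate, and classes with the library as a block. Alternatives were DESeq2 1.42.0, no filter, scaling by totals, other clusterings or a gate per cell, other cell filters, the joint reference, the graft site as a block and each graft library left out. Tests were tried on simulated data. In the simulated 4MPT against 2MPT comparison of all human cells, over 19074 genes, 24% of genes changed by 1 on the log2 scale and 83% of those changed by 2 were recovered. Every simulated gene had the same dispersion, the spread beyond counting error, so these shares may not hold for genes whose replicates stood further apart.

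The 7 genes were described in every library and class. Listed genes were named when they had the 2 highest levels of their list or were called in a comparison described; lists covered pallial progenitor, pallial neurogenic and subpallial factors, hem and choroid plexus, diencephalon and hindbrain, paralogues and partners, and genes at the loci; 1 listed gene is not reported here by name. The members and lists were chosen with earlier results of these data known.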

Additional observations from a re-analysis of the deposited data

Results flagged for a closer look

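For 6 changes between 2MPT and 4MPT, the test of the difference between classes passed in edgeR (log2 scale). Against neuron-like cells, the change in progenitor-like cells was lower by 1.12 for LHX2 (-1.12), by 1.24 for PAX6 (-1.24) and by 1.17 for SOX2 (-1.17). The change of LHX2 was smaller in progenitor-like cells without UMIs of the inhibitory neuron and oligodendrocyte lists. Its difference between classes was not tested in those cells. In astrocyte-like cells the differences from the same neuron-like cells, inhibitory-neuron-like clusters included, were -1.60 for PAX6, -0.84 for NR2F1 and -1.95 for SOX2. Without the inhibitory-neuron-like clusters the differences of PAX6 and SOX2 in progenitor-like cells were -0.50 and -0.71 and did not pass, and all 3 in those cells were lost without HIP_4MPT or without PFC_4MPT. In astrocyte-like cells PAX6 (-1.07) and NR2F1 (-0.85) did not pass without PFC_4MPT, nor NR2F1 without HIP_2MPT (-0.66) or HIP_4MPT (-0.72).

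For 3 genes PFC and HIP stood in opposite order at the 2 stages, with PFC above HIP at 2MPT and below it at 4MPT. The log2 ratio of PFC over HIP at 4MPT less that at 2MPT was -1.70 for NR2F1, -1.57 for NR2F2 and -2.36 for SOX2. Each site and stage had 1 library, so these differences were not tested.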

How the results depend on the processing

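Of 1701 fold changes of the 7 genes under the alternatives, 1479 either kept their call or stayed uncalled and within their error, 89 lost their call, 58 gained one and 75 moved by more than their error; 63 that were uncalled under both settings changed sign, and none that passed reversed. The number of the 7 genes called changed as follows, and the causes were not tested. Over all human cells, 4MPT against 2MPT, 1 gene was called, against 2 by DESeq2, 4 without the filter on low counts, 2 with the graft site as replicate block and 0 to 4 with 1 library left out. In progenitor-like cells 3 were called, against 1 with clusters at resolution 1.6, 0 with classes by a gate, 0 in cells without UMIs of the inhibitory neuron and oligodendrocyte lists, 0 in the radial-glia-like cluster alone and 0 to 4 with 1 library left out; the selections of cells leave fewer cells and genes to test. In neuron-like cells 1 was called, against 2 by DESeq2, 5 without the filter, 2 with scaling by totals, with resolution 1.6, without integration, by the gate, with under 10% mitochondrial UMIs and with the block, 0 without inhibitory-neuron-like clusters, 0 in cells without those UMIs and 0 to 5 with 1 library left out. In astrocyte-like cells 1 was called, against 0 by DESeq2, by the gate and in cells without those UMIs, and 0 to 3 with 1 library left out. In 2MPT against D0, progenitor-like cells gave 5 calls, 3 in the radial-glia-like cluster alone and 3 to 6 with 1 library left out. Between astrocyte-like and progenitor-like cells 0 were called, against 1 without the filter, 2 with scaling by totals and 1 without inhibitory-neuron-like clusters. For the difference of the stage change between classes, 3 were called for progenitor-like cells, against 1 without inhibitory-neuron-like clusters and 0 to 3 with 1 library left out, and 3 for astrocyte-like cells, against 1 by the gate and 1 to 3 with 1 library left out.

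The graft site is what same-numbered libraries share, and no label ties them to an animal. Across the stages, deviations of same-site libraries correlated at -0.286 over 7293 genes, so the site was not taken to pair libraries. With the site as replicate block, 734 genes were called over all human cells (457 without) and 348 in neuron-like cells (173 without). With the crossed pairing, chosen after seeing the data, 1330 and 1247 genes and 3 and 5 of the 7 were called in these cells.

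Counts of all genes called also moved by over 1.5 times: 1347 without the filter for 4MPT against 2MPT over all human cells, 88 by DESeq2, 283 without the filter, 105 with scaling by totals and 113 by the gate for progenitor-like cells (176), 297 by DESeq2 and 876 without the filter for neuron-like cells (173), 150 and 724 for astrocyte-like cells (382), and 3017 by DESeq2 for 2MPT against D0 in progenitor-like cells (4852). For the differences between classes they were 72, 266 and 448 by DESeq2, without the filter and by the gate (115) for progenitor-like cells and 350 and 80 by DESeq2 and the gate (607) for astrocyte-like cells. With 1 library left out, 32 (without PFC_4MPT) to 1508 genes (without PFC_2MPT) were called for 4MPT against 2MPT over all human cells (457), 19 to 378 without these libraries in progenitor-like cells, 161 to 825 in neuron-like cells and 264 to 782 in astrocyte-like cells (both highest without PFC_2MPT). For the differences between classes 17 to 161 and 118 to 517 were called, and for astrocyte-like against progenitor-like cells 2982 to 4863 (4895 with all), each lowest without HIP_4MPT and next without PFC_4MPT. PFC against HIP called 0 to 36 genes under all settings and cells. Leaving out a library there leaves no residual degrees of freedom, so it was not run. Scaling by totals shifted the median of all genes by -0.140 for 4MPT against 2MPT in progenitor-like cells and by 0.168 and 0.219 for astrocyte-like against neuron-like and progenitor-like cells, and moved the share of calls that were higher from 48.1% to 60.8% and from 49.6% to 70.5%.

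With 2 libraries per stage and 1 for D0, and with few UMIs of EMX1 in progenitor-like cells at 4MPT, differences could be missed: 24% of genes changed by 1 on the log2 scale were recovered in the simulated comparison of 4MPT against 2MPT over all human cells. In progenitor-like cells the share was 16%, and for 2MPT against D0 over all human cells 4%. For the difference of the stage change between progenitor-like and neuron-like cells it was 6%. In each simulated comparison 100 genes changed by 1 and 100 by 2 on the log2 scale. In the data 48.3% of genes passed for 2MPT against D0, so the adjusted threshold was stricter in that simulation. The 4% may thus not hold for that comparison.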
